A study of Mus musculus with 6 samples.

Results

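The replication-dependent histone genes encode the bulk histones that package newly made DNA. They were taken as the genes of the authors' deposited comparison table whose symbol begins with Hist1h, Hist2h, Hist3h or Hist4h, and 49 of its 11221 genes met this rule. Of these, 5 encode the linker histone H1, 8 encode H2A, 14 encode H2B, 9 encode H3 and 13 encode H4, where Hist3h2bb-ps, 1 of the H2B genes, is annotated as a pseudogene. By genomic cluster, 39 lie in Hist1 on chromosome 13, 6 in Hist2 on chromosome 3, 3 in Hist3 on chromosome 11 and 1 in Hist4 on chromosome 6. Symbol and class are used as the table gives them. All 49 genes, like all 11221 of the table, held more than 1 CPM, a read count scaled to the size of its library, in each of the 6 libraries, so none was included through 1 genotype alone.

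RNA came from naïve CD4 T cells of mouse lymph nodes, which flow cytometry had gated as TCRb+, CD4+, CD62L+ and CD44-. The 3 control libraries came from Rnmt fl/fl CD4cre - mice and the 3 Rnmt cKO libraries from Rnmt fl/fl CD4cre + mice, all labelled male, with no age given in the sources used here. RNMT methylates the cap guanosine at the 5′ end of RNA polymerase II transcripts, and in the floxed allele, which both genotypes carry, loxP sites surround an Rnmt exon that Cre removes. Cre was driven by a Cd4 transgene, which is active from the double-positive stage of thymocyte development and is absent from the controls, so the transgene and the deletion cannot be told apart. The labels do not tie libraries to animals, and the study describes them as coming from separate mice of each genotype. Set side by side, the genotypes show which histone transcripts differ between control T cells and T cells in which Cre removes this Rnmt exon.

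Core histones H2A, H2B, H3 and H4 form the octamer around which DNA is wrapped, and H1 binds the DNA between octamers. Their replication-dependent genes lie in clusters, lack introns for the most part and are transcribed chiefly in S phase, when NPAT at histone locus bodies drives them. The mRNAs usually end in a stem-loop in place of a poly(A) tail. Stem-loop binding protein (SLBP) holds this stem-loop through processing and translation, and the mRNA decays when DNA synthesis stops. Some genes, among them Hist1h1c, Hist1h2bc and Hist2h2be, are also transcribed into polyadenylated mRNA in cells that do not divide. The libraries were made by depletion of ribosomal RNA, without selection for poly(A), so that both forms could be sequenced, and the counts do not separate them.

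The 3′ stem-loop is the sequence that defines this mRNA family, and its letters differed between H4 and the other classes. It was searched as a 6-base stem that begins with GG, a 4-base loop and a pairing stem in the GENCODE vM21 transcripts (mm10). Of the 47 genes with a transcript, 31 held a match, against 0.117% of the 55450 annotated genes (65 genes in all). The stem letters are shown in capitals with the loop and 5 flanking bases in lower case, for genes that span the range of change described below:
Hist1h4c (chr13:23698084-23698109, minus strand): caaaaGGCCCTtttcAGGGCCaccca
Hist4h4 (chr6:136803993-136804018, minus strand): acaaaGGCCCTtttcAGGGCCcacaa
Hist1h4j (chr13:21735432-21735457, plus strand): ctaaaGGTCCTtttcAGGACCaccac
Hist1h1c (chr13:23739507-23739532, plus strand): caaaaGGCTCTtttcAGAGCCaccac
Hist2h2ac (chr3:96220413-96220438, minus strand): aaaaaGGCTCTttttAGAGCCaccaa
Hist1h2bb (chr13:23747198-23747223, plus strand): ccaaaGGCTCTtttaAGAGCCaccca
Hist1h3d (chr13:23576239-23576264, plus strand): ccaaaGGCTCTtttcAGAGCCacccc
Hist1h3c (chr13:23745042-23745067, minus strand): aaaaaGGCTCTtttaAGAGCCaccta
All 12 H4 genes with a match had the stem GGCCCT (10 genes) or GGTCCT (2 genes), and all 19 matched genes of the other classes had GGCTCT. The other 16 held no match, which says only that these letters are not in the annotated transcript.

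The promoters of the classes also differed in their letters. The 150 bases before the RefSeq start (GRCm38.p6) are shown for 4 genes, 2 that rose more than 3-fold and 2 highly expressed genes that were not called, with the motifs searched in capitals on either strand. These were the CCAAT box, the octamer with the letters ATTTGCAT, the H1 box with the letters AAACACA, the TATA box as TATAAA and, chosen after the sequences had been read, the letters GGTCCG:
Hist1h3d (chr13:23575613-23575762, plus strand): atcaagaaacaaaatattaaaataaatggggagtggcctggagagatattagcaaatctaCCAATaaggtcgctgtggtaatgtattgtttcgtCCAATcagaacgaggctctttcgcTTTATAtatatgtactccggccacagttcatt
Hist1h2bb (chr13:23746584-23746733, plus strand): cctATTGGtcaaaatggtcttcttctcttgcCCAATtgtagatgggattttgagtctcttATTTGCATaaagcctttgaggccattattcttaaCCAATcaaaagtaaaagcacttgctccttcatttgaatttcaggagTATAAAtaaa
Hist1h1c (chr13:23738657-23738806, plus strand): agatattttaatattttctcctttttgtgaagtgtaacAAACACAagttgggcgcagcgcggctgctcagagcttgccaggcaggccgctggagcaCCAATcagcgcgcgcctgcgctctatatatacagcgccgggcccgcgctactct
Hist1h4c (chr13:23698459-23698608, minus strand): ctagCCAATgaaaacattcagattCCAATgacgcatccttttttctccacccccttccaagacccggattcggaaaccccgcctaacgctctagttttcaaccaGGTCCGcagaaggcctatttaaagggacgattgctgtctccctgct
Within 250 bases before the start, CCAAT was found in 34 of the 43 genes with a RefSeq promoter, in 31 of 31 outside H4 and in 3 of 12 of H4, and in 33.8% of all 32851 promoters. The octamer was found in 4 H2A and 4 H2B genes (1.6% of all promoters). The H1 box was found in 4 of 5 H1 genes and in 1 H2B gene, Hist1h2bm (6.25%). TATAAA was found in 23 genes (12.4%). GGTCCG was found in 9 of 12 H4 genes and 2 others (6.72%).

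The libraries held 8873413 to 11277764 sense counts assigned to genes, of which 9178 to 24866 fell on the 49 histone genes. Pairs of libraries of a genotype differed by more than sampling noise (chi-square per degree of freedom of 3.79 to 25.4), and each was taken as 1 replicate. Rnmt itself measured 51.5, 58.7 and 57.9 CPM in controls 1 to 3 and was at 41.95, 37.5 and 26.6 CPM in Rnmt cKO libraries 1 to 3, a log2 fold change of -0.67 ± 0.21 (SE, n = 3 per genotype, edgeR exact test, adjusted p = 0.00035). These counts cover the whole gene, with the exons that Cre leaves in place. The study reports that reads on the deleted exon were lost in naïve Rnmt cKO cells and that RNMT protein was minimal there. Some uniquely mapped reads fell on no annotated exon of the sense strand, and these can lie in introns or on the opposite strand. Their share was 36.1, 39.7 and 46.1% in the controls and 47.9, 46.5 and 31.8% in the Rnmt cKO libraries. Rnmt cKO library 3 thus stood apart from the others of its genotype. Reads mapping to several places, which the authors' counts leave out and which near-identical histone copies yield, made up 11.8 to 17.5% of mapped reads in controls and 8.27 to 13.9% in Rnmt cKO libraries. The part of these shares in the results was not tested.

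Most replication-dependent histone genes were higher in Rnmt cKO cells than in controls. The 7 genes with the most reads all lay below the median log2 fold change of the set (0.88). Among these, Hist1h1d (0.87 ± 0.16, SE) and Hist1h1e (0.86 ± 0.15) lay below it by less than their SE. Of the 49 genes, 35 rose and none fell (edgeR exact test, Benjamini-Hochberg adjusted over all 12336 genes tested, threshold 0.05), while 8.0% of all genes tested rose and 6.84% fell. At an unadjusted p under 0.05, 1 histone gene was lower, and the edgeR quasi-likelihood test and DESeq2 each called 34 higher and 0 lower. The median log2 fold change was 0.88 over the 49 genes and 0.01 over all genes tested. It ran from -0.77 in Hist2h2ab, an H2A gene, to 2.95 in Hist1h3c, an H3 gene. In 37 genes every Rnmt cKO library lay above every control and in 1 gene every one lay below, against 16.6% and 14.9% of all genes tested. In these bulk samples, a larger share of cells that hold histone mRNA and more histone mRNA per cell cannot be told apart.

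Summed over the 49 genes, histone transcripts came to 1247, 1131 and 1014 CPM in controls 1 to 3 and to 1728, 1556 and 2228 CPM in Rnmt cKO libraries 1 to 3. The means were 1131 ± 116 and 1837 ± 349 CPM (SD, n = 3 each), 1.62-fold higher in Rnmt cKO, and the genotypes did not overlap. As a share of the raw sense counts, without the TMM scaling that CPM carries, the 49 genes held 0.108% in controls and 0.190% in Rnmt cKO. For a single value, an exact two-sided permutation test of 3 libraries against 3 cannot give a p below 0.1, the value reached by this sum and by each class sum below.

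**Figure D1:**
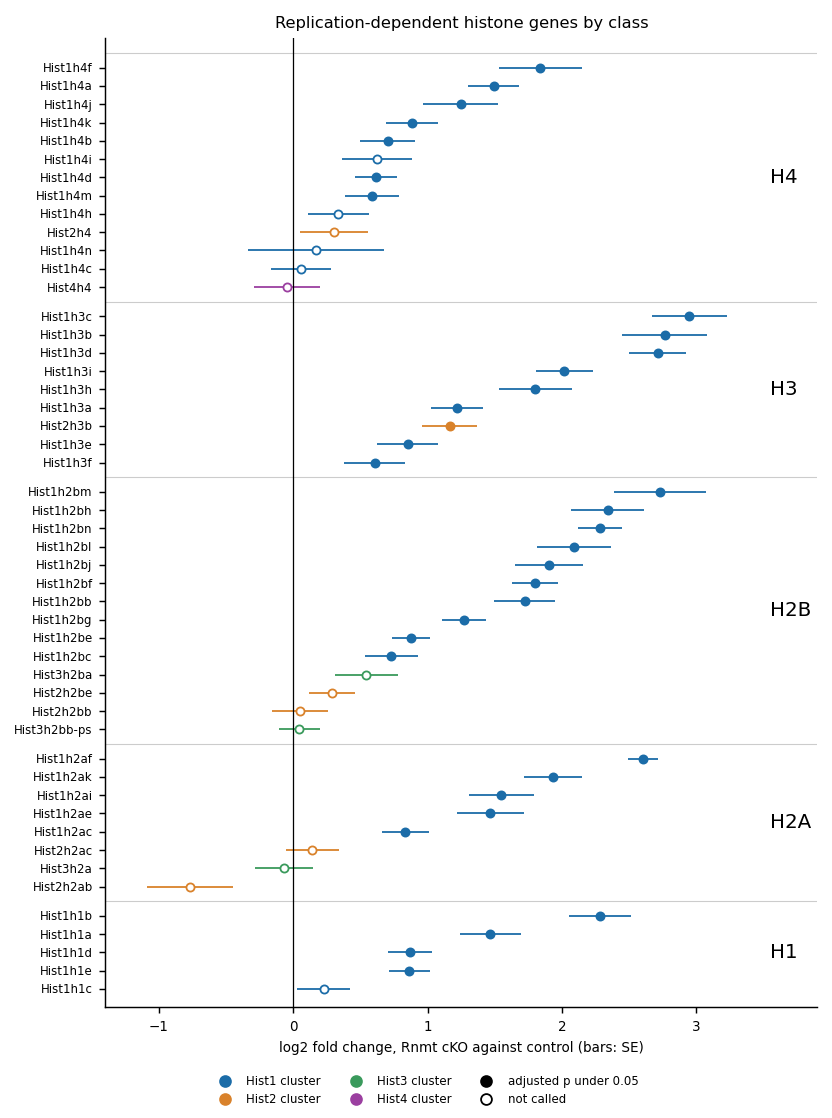
Log2 fold change (x axis, Rnmt cKO against control, bars are SE from 3 libraries per genotype) of each of the 49 histone genes, grouped by class and coloured by genomic cluster, with filled points for genes with an adjusted p under 0.05. All 9 H3 genes are filled, from 0.60 to 2.95, and open points are found mainly among H4 genes and among genes of the Hist2, Hist3 and Hist4 clusters.

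The H3 class, whose tails carry many of the chromatin marks, rose throughout. All 9 H3 genes were called, with a median log2 fold change of 1.80, and their summed level went from 93.05 ± 15.1 to 215 ± 36.3 CPM (SD, n = 3 each), 2.31-fold. Hist1h3c (chromosome 13, 23744973 to 23745602, mm10), whose stem-loop is shown above, measured 4.11, 2.79 and 2.21 CPM in controls 1 to 3 and then 23.7, 19.5 and 27.0 CPM in Rnmt cKO libraries 1 to 3. Every Rnmt cKO library thus held more than 4 times the highest control, and the log2 fold change was 2.95 ± 0.28 (SE, exact test, adjusted p = 3.97e-34). Nearby, Hist1h3b went from 3.17, 2.89 and 1.66 CPM to 16.9, 14.35 and 21.4 CPM (log2 fold change 2.76 ± 0.32). Hist1h3d went from 1.18, 1.60 and 1.22 CPM to 7.19, 10.97 and 8.24 CPM (log2 fold change 2.71 ± 0.21). The H3 genes with the most reads changed less. Hist1h3f was at 43.1, 38.4 and 31.3 CPM in the controls and at 50.2, 49.1 and 72.1 CPM in Rnmt cKO (log2 fold change 0.60 ± 0.22, exact test, adjusted p = 0.00477), and without control library 3 it was not called (0.49, adjusted p = 0.0725). Hist1h3e was at 33.5, 28.4 and 21.5 CPM and at 48.5, 43.1 and 58.9 CPM (0.85 ± 0.23, adjusted p = 1.70e-05). For neither gene did the genotypes overlap.

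The H2B class, which pairs with H2A, rose in 10 of 14 genes, with a median of 1.498. Its summed level was close to equal in the 3 controls (113, 112 and 111 CPM) and was 251.6, 220.5 and 319.9 CPM in Rnmt cKO libraries 1 to 3, 2.36-fold higher on average. Hist1h2bb (chromosome 13, 23746734 to 23747241), the gene with the octamer and CCAAT promoter printed above, measured 11.4, 13.8 and 11.5 CPM in the controls and 36.1, 32.4 and 52.7 CPM in Rnmt cKO (log2 fold change 1.72 ± 0.23, exact test, adjusted p = 3.25e-16). Hist1h2bm measured 3.53, 2.695 and 1.88 CPM and 15.1, 14.35 and 24.3 CPM (2.73 ± 0.34). Hist1h2be, the H2B gene with the most reads, measured 30.6, 28.2 and 30.3 CPM and 54.4, 45.6 and 63.4 CPM (0.88 ± 0.14, adjusted p = 9.88e-09). The annotated Hist1h2be model overlaps Hist1h1e on the same strand. Of the 2 H2B genes known for polyadenylated mRNA, 1 was called, and the difference between them was not tested. Hist1h2bc rose from 13.9, 13.3 and 14.1 CPM to 22.3, 17.7 and 28.4 CPM (0.73 ± 0.20, adjusted p = 0.00136). Hist2h2be was at 10.6, 12.8 and 9.61 CPM and at 12.7, 11.8 and 15.9 CPM, overlapping ranges (0.29 ± 0.17, adjusted p = 0.363).

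The 4 H2B genes that were not called all lay outside Hist1. Besides Hist2h2be these were Hist2h2bb (6.46, 5.19 and 5.85 CPM in the controls, then 5.28, 5.06 and 7.71 CPM in Rnmt cKO, log2 fold change 0.05 ± 0.21), Hist3h2ba and the pseudogene Hist3h2bb-ps. Hist3h2ba (chromosome 11, 58948920 to 58949533) was at 3.996, 4.19 and 4.42 CPM and at 4.86, 5.23 and 8.24 CPM, without overlap but not called (0.54 ± 0.23, adjusted p = 0.198). Hist3h2bb-ps was at 5.17, 4.39 and 3.98 CPM and at 4.12, 4.39 and 5.38 CPM (0.04 ± 0.15).

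The H2A class divided in the same way by cluster, with 5 of 8 genes called higher and a median of 1.15. Hist1h2af (chromosome 13, 23533906 to 23534304) rose from 1.41, 1.30 and 1.11 CPM to 7.715, 7.17 and 8.42 CPM (log2 fold change 2.60 ± 0.11, exact test, adjusted p = 1.255e-18). Hist1h2ak rose from 10.6, 12.6 and 8.73 CPM to 40.4, 33.2 and 48.4 CPM (1.93 ± 0.22, adjusted p = 2.10e-23). In contrast, the H2A gene with the most reads, Hist2h2ac, was at 52.0, 45.3 and 41.5 CPM in the controls and at 44.6, 44.4 and 63.9 CPM in Rnmt cKO, with overlapping ranges (0.14 ± 0.20, adjusted p = 0.66). Hist2h2ab (chromosome 3, 96219865 to 96220308), which lies beside it, was at 5.05, 2.99 and 3.31 CPM and at 2.64, 1.52 and 2.51 CPM, below every control but not called (-0.77 ± 0.32, adjusted p = 0.119). Hist3h2a was at 4.58, 3.09 and 2.76 CPM and at 3.49, 3.12 and 3.32 CPM (-0.07 ± 0.21). The summed H2A level was 81.0 ± 9.74 CPM in the controls and 141 ± 25.4 CPM in Rnmt cKO (SD, n = 3 each), 1.74-fold, of which Hist2h2ac made up the largest part in controls.

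The linker histone class H1 was called higher in 4 of 5 genes, with a median of 0.87, and the exception was the histone gene with the most reads of all. Hist1h1c (chromosome 13, 23738808 to 23740367), which is also made in polyadenylated form, measured 276, 235 and 203 CPM in the controls and 262, 238 and 335 CPM in Rnmt cKO. The genotypes overlapped (log2 fold change 0.23 ± 0.19, exact test, adjusted p = 0.363), and without scaling beyond library size the gene was called (0.35, adjusted p = 0.0424). Hist1h1e rose from 89.7, 95.0 and 70.9 CPM to 159.9, 138.5 and 166.5 CPM (0.86 ± 0.15, adjusted p = 4.80e-10). The other 3, Hist1h1d, Hist1h1a and Hist1h1b, rose by log2 fold changes of 0.87 ± 0.16, 1.47 ± 0.23 and 2.28 ± 0.23, in the reverse order of their mean control CPM (50.2, 10.96 and 4.54). Control CPM is also the base of each of these fold changes. The summed H1 level was 389 ± 48.1 CPM in the controls and 577 ± 91.1 CPM in Rnmt cKO, 1.48-fold.

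The H4 class, in which every gene encodes the same or nearly the same short protein, had the smallest ratio of summed levels, and its difference from the ratio of H1 was not tested. Of its 13 genes 7 were called higher, with a median of 0.61, and the summed level was 456 ± 43.4 CPM in the controls and 640 ± 146 CPM in Rnmt cKO (SD, n = 3 each), 1.40-fold. Without Rnmt cKO library 3 the log2 ratio of this sum was 0.27 in place of 0.49. Hist1h4d (chromosome 13, 23581598 to 23582735), with the most H4 reads, rose from 132.9, 134.4 and 126.5 CPM to 195, 166 and 242 CPM (log2 fold change 0.61 ± 0.16, exact test, adjusted p = 6.76e-05). Hist1h4c (chromosome 13, 23697635 to 23698454), whose stem-loop and promoter are printed above, was at 108, 91.0 and 85.9 CPM in the controls and at 87.5, 81.5 and 127 CPM in Rnmt cKO. Its ranges overlapped throughout (0.05 ± 0.22, adjusted p = 0.905), and its direction changed with the library left out, from -0.19 to 0.17. Hist4h4 (chromosome 6, 136801553 to 136804415), the lone gene of the Hist4 cluster, was at 37.3, 30.6 and 30.5 CPM and at 28.5, 24.6 and 42.0 CPM (-0.05 ± 0.25, adjusted p = 0.936). The largest H4 rises were in Hist1h4f (1.84 ± 0.31), Hist1h4a (1.49 ± 0.19) and Hist1h4j (1.25 ± 0.28), which held 10.5, 4.33 and 8.07 CPM in the controls on average. Other H4 genes at such levels had smaller values, among them Hist1h4b (0.70), Hist1h4m (0.59) and the uncalled Hist1h4i (0.62) and Hist1h4n (0.17).

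**Figure D2:**
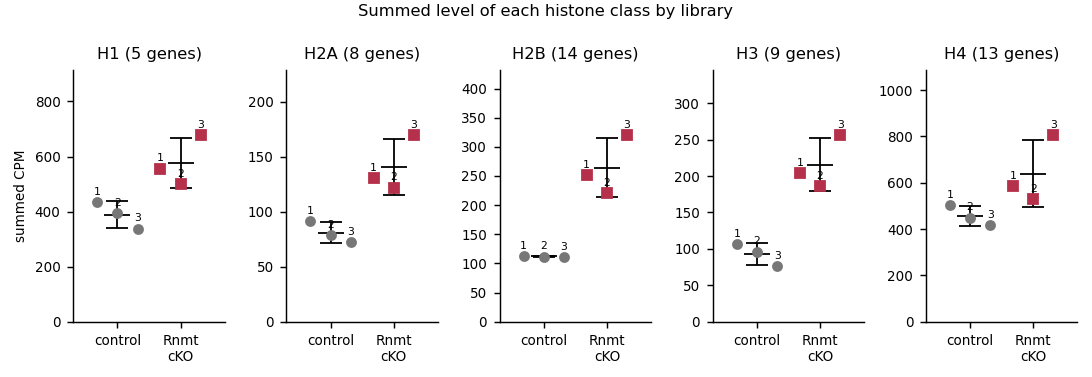
Summed CPM (y axis, from 0) of the genes of each histone class in the 3 control and 3 Rnmt cKO libraries, numbered by replicate, with bars at the mean and SD. In all 5 classes every Rnmt cKO library lies above every control, and Rnmt cKO library 3 is the highest.

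The mixture of histone mRNA shifted between classes. Of the summed histone CPM, H2B made up 9.95 ± 0.93% in controls and 14.4 ± 0.19% in Rnmt cKO (SD, n = 3 each), and H3 made up 8.20 ± 0.55% and 11.8 ± 0.24%. H2A changed from 7.16 ± 0.19% to 7.67 ± 0.14%. The shares of H4 and H1 were lower, at 40.3 ± 0.66% against 34.7 ± 1.28% for H4 and 34.4 ± 0.88% against 31.5 ± 1.00% for H1. For each of the 5 shares the libraries of the genotypes did not overlap (exact two-sided permutation test, p = 0.1 in each of the 5, the smallest the design allows). These are shares of reads, and longer transcripts such as those of Hist1h1c yield more reads per molecule.

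By genomic cluster, the called genes lay almost entirely in Hist1. In Hist1, 34 of 39 genes rose (median 1.47), in Hist2 1 of 6 (median 0.21), in Hist3 0 of 3 (median 0.04), and in Hist4 0 of 1. At an unadjusted p under 0.05 by the exact test 1 gene of Hist3 and 0 of Hist4 were higher, and the quasi-likelihood test and DESeq2 called 0 in both. For Hist2 the summed log2 ratio was 0.29, and 0.10 without Rnmt cKO library 3. By both class and cluster, all 23 H2A, H2B and H3 genes of Hist1 rose (median 1.80), and their summed level was 198.3 ± 15.96 CPM in the controls and 514 ± 92.6 CPM in Rnmt cKO, 2.59-fold. Of the 8 H2A, H2B and H3 genes of Hist2 and Hist3, 1 rose, Hist2h3b (1.17 ± 0.21, exact test, adjusted p = 7.84e-08). The sum of these 8 was 97.3, 87.2 and 78.1 CPM in the controls and 97.0, 91.7 and 129 CPM in Rnmt cKO, overlapping (exact permutation test, p = 0.3). All 75-base words of the annotated Hist2h3b and Hist2h2bb transcripts occur in other genes, so their values are uncertain. The share of Hist1 in the summed histone CPM was 86.3 ± 0.31% in controls and 90.2 ± 0.23% in Rnmt cKO, without overlap. With 10 genes in the other 3 clusters, of which 2 encode H4 and none H1, class and cluster are not balanced.

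Within Hist1, members fall into 2 stretches of chromosome 13 that lie more than 300000 bases apart. In the first (21715763 to 22043676) 11 of 13 genes rose, with a median of 1.80, and the summed level went from 100.1 ± 12.8 to 262 ± 52.1 CPM. In the second (23531050 to 23764406), which holds Hist1h1c, Hist1h4c and Hist1h4h, 21 of 24 rose, with a median of 1.05, and the sum went from 871 ± 84.3 to 1368 ± 253 CPM. Hist1h2bh and Hist1h2bm had no entry in the annotation used for positions and were placed in neither. No non-histone gene was tested inside these stretches. Of the 3 non-histone genes tested within the Hist2 span, Gm20632 was higher (1.11, exact test, adjusted p = 0.0357) and the others were not called.

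Head-to-head pairs of H2A and H2B genes, which share the DNA between their starts, had like values within a pair. There were 6 pairs with starts within 500 bases of each other. The log2 fold changes were 1.55 and 2.09 for Hist1h2ai and Hist1h2bl, 1.93 and 2.28 for Hist1h2ak and Hist1h2bn, 1.47 and 1.27 for Hist1h2ae and Hist1h2bg, and 0.83 and 0.73 for Hist1h2ac and Hist1h2bc, and all 8 genes were called. In the pairs outside Hist1 they were 0.14 and 0.29 for Hist2h2ac and Hist2h2be and -0.07 and 0.04 for Hist3h2a and Hist3h2bb-ps, and none of these 4 was called. The pairs were chosen after their values were seen, and paired genes also lie in the same cluster.

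**Figure D3:**
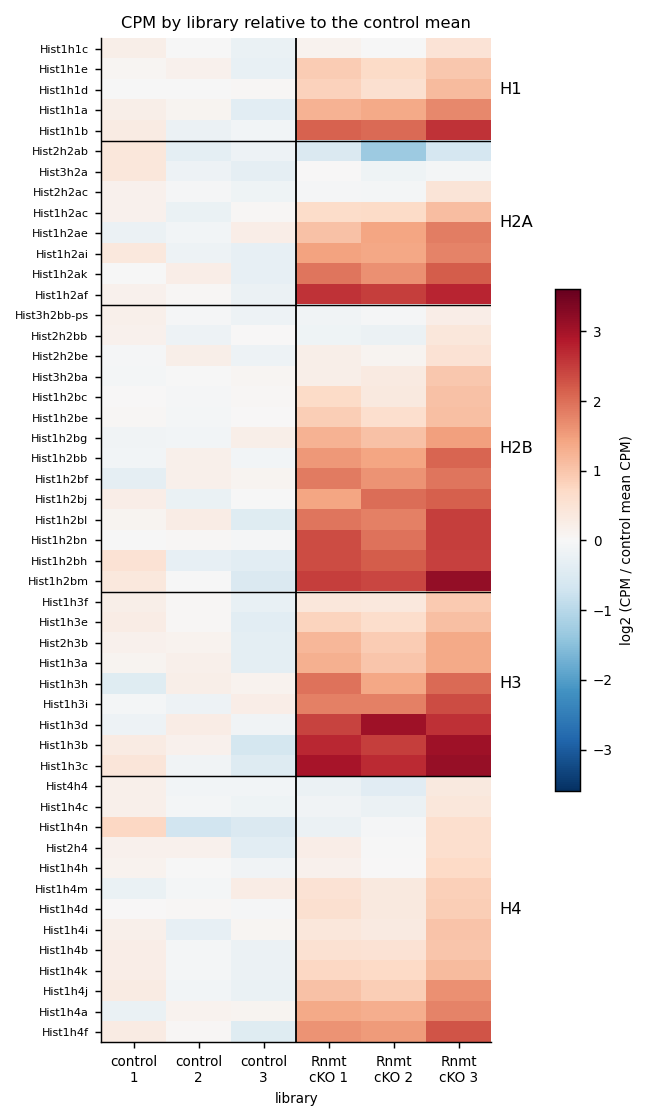
Colour gives log2 of the CPM of each histone gene (rows, by class and then by log2 fold change) in each library (columns) over the mean of the 3 controls, with red above and blue below the control mean. The rise is present in all 3 Rnmt cKO libraries for most H2B and H3 rows and deepest in Rnmt cKO library 3, while Hist2h2ab is blue in all 3.

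Levels between genes were compared as CPM per kb of annotated exon, which 47 genes allowed. This length includes stretches shared with other genes, where reads can go uncounted, so the order of genes is approximate. Hist1h4k shared 68.1% of its 75-base words with other genes, Hist1h4h 42.4% and Hist1h4d 3.67%. In controls the highest were Hist1h4h (168), Hist1h1c (153), Hist1h4c (116), Hist1h4d (115), Hist1h4k (89.2) and Hist2h2ac (89.0), and Hist1h1e followed at 44.15. The values of Hist1h4c and Hist1h4d in controls differed by less than their spread between libraries. In Rnmt cKO cells, Hist1h4h (211), Hist1h1c (178.5), Hist1h4d (177) and Hist1h4k (164) led, and Hist1h2ak, at 27.0 in controls, reached 103. Across the 47 genes the Spearman correlation of control level per kb and log2 fold change was -0.35, a description over genes that share the same 6 libraries. The 7 genes with the most reads (Hist1h1c, Hist1h4d, Hist1h1e, Hist1h4c, Hist1h4h, Hist1h1d and Hist2h2ac) held 64.1% of the summed control CPM, and the largest log2 fold change among them was 0.87. Of the 29 genes under 10 CPM in controls, 22 rose (median 1.49), and of the 20 at 10 CPM or more, 13 rose (median 0.79). The control level is also the base of each fold change, so a negative relation can arise partly from the calculation. The size of that part was not tested.

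**Figure D4:**
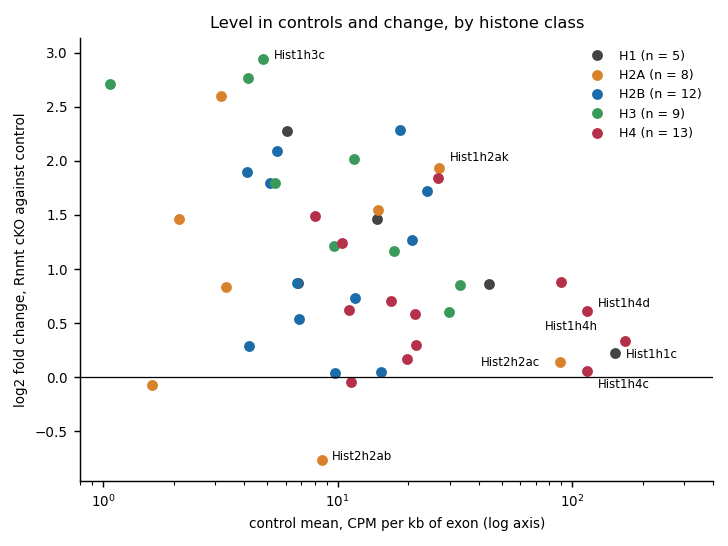
Control mean level (x axis, CPM per kb of exon, log scale) and log2 fold change (y axis) of the 47 histone genes with an annotated length, coloured by class. The genes at the right edge, at 89.0 and above in controls, lie between 0.05 and 0.88, while the genes above 2.5 on the y axis lie below 5 on the x axis.

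Changes were also set beside the sequence features. Where the annotated transcript ended within 200 bases after the stem-loop, 12 of 16 genes rose (median 1.37), and where it ran further, as in Hist1h1c, Hist1h4c and Hist4h4, 9 of 15 rose (median 0.62). Without an annotated match 12 of 16 rose (median 1.51). In H4 alone the medians were 0.64 (6 genes) and 0.46 (6 genes), and in H3 alone 2.76 (3 genes) and 0.85 (3 genes). The 34 genes with CCAAT in the promoter had a median of 1.48 and the 9 without, which are all H4 genes, 0.62. Within H4 the 3 with CCAAT had a median of 0.61 and the 9 without 0.62. The 8 genes with the octamer had a median of 1.05, against 1.25 in the 35 without. These are descriptions of overlapping groups, and class, motif and transcript end are bound together.

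Near-identical copies limit how reads can be assigned to a single gene. Over the 47 genes with a transcript, a median of 35.5% of their 75-base words also occurred in other genes, with class medians of 58.6% in H3, 42% in H2B, 34.45% in H2A, 24.6% in H4 and 1.47% in H1, and 17 genes shared 50% or more. The Spearman correlation of this share with the log2 fold change was 0.23. Hist1h1a, Hist1h1b, Hist2h2be and Hist2h4 shared none (0%), and Hist1h4d (3.67%), Hist4h4 (5.39%) and Hist1h1c (6.66%) shared few, while Hist1h2af shared 86.8%.

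A further 21 genes with such symbols stood outside the authors' deposited table. Of these 7 passed the filter used here, and all 7 rose, from 1.69 in Hist1h2bp to 3.35 in Hist1h2ab. Hist1h2ab, an H2A gene, held 9, 15 and 7 counts in controls and 113, 122 and 138 counts in Rnmt cKO. Hist1h3g, an H3 gene, held 12, 13 and 6 counts and 97, 101 and 148 counts (log2 fold change 3.23). Genes so low in controls pass the filter only where the Rnmt cKO libraries are high, so these 7 are no support for the direction. The other 14 were not tested, and 7 of them held no count in any library, where reads that map equally well to a copy are not counted.

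The rise was not equal between the Rnmt cKO libraries. Library 3 was the highest of its genotype for 46 of the 49 genes, against 41.3% of all genes tested, and control 1 was the highest control for 30 of 49, against 35.6%. Without Rnmt cKO library 3, 33 of 49 rose and the median was 0.79. Rnmt cKO library 3 and controls 1 and 2 had the lower shares of reads on no sense-strand exon. Rnmt cKO libraries 1 and 2 and control 3 had the higher shares. Within the first set, the median log2 ratio over the 49 genes was 1.16, and within the second 0.94, with 1 library of a genotype in each and hence no test. For H4 these values were 0.88 and 0.49, for H3 2.03 and 1.47, and for Hist4h4 0.31 and -0.20. This split was chosen after the data were seen.

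Of 11 listed genes for histone variants 9 were tested. By the exact test 3 were called higher and 0 lower, beside 8.0% and 6.84% of all genes tested. Also 0 were lower at an unadjusted p under 0.05, by the quasi-likelihood test and by DESeq2. H3f3a and H3f3b encode the same variant, H3.3. H3f3a was at 190, 180 and 183 CPM in the controls and at 163, 164 and 223 CPM in Rnmt cKO (log2 fold change -0.01 ± 0.15, exact test, adjusted p = 0.995), and H3f3b rose from 396, 428 and 316 CPM to 505, 470 and 565 CPM (0.44 ± 0.15, adjusted p = 0.00887). H2afx, the variant that is phosphorylated at DNA breaks, rose from 18.3, 18.7 and 12.9 CPM to 29.2, 31.8 and 34.5 CPM (0.94 ± 0.18, adjusted p = 1.32e-07). The third gene called was Cenpa, the centromeric variant (0.57 ± 0.20). H2afz was at 65.9, 62.8 and 52.8 CPM and at 54.9, 59.1 and 83.9 CPM (0.12 ± 0.21).

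Genes for the synthesis, 3′ processing and decay of histone mRNA were not called. Of 19 listed, 17 were tested and 0 were called in either direction by the exact test, the quasi-likelihood test or DESeq2 (median 0.03), while at an unadjusted p under 0.05 3 were higher and 1 was lower. Slbp was at 34.7, 38.1 and 36.2 CPM in the controls and at 41.5, 44.5 and 47.5 CPM in Rnmt cKO, above every control but not called (0.29 ± 0.07, adjusted p = 0.0539). Npat was at 66.8, 62.5 and 68.2 CPM and at 59.8, 65.8 and 68.4 CPM (-0.02 ± 0.07). Of 17 genes for histone chaperones, which carry new histones to DNA, 3 rose and 1 fell, beside 8.0% and 6.84% of all genes tested. Chaf1a (2.32 ± 0.20), Asf1b (0.88 ± 0.19) and Daxx (0.50 ± 0.14) rose, and Nap1l1 (-0.545 ± 0.079) fell, and these 4 are named here because they were called.

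Genes of S phase rose in 19 of 26 cases, and none fell, with a median of 0.74. Over all genes tested, 8.0% rose and 6.84% fell. Ccne2 and E2f1 were under 1 CPM in every control and passed the filter only through Rnmt cKO libraries. Their calls are therefore no support for the direction. The summed level of the 26 genes was 686, 675 and 638 CPM in the controls and 1040, 1071 and 1142 CPM in Rnmt cKO, 1.63-fold. Mki67, which marks cycling cells, rose from 17.2, 16.1 and 12.5 CPM to 115, 128 and 108 CPM (2.94 ± 0.16, exact test, adjusted p = 2.12e-103). Rrm2, which makes deoxyribonucleotides, rose from 3.64, 3.29 and 3.09 CPM to 16.7, 15.9 and 18.6 CPM (2.35 ± 0.09, adjusted p = 9.36e-29). Pcna, the DNA clamp, was at 103, 88.9 and 95.1 CPM and at 103, 104 and 125 CPM (0.21 ± 0.11, adjusted p = 0.212). Mki67 was highest in Rnmt cKO library 2, and Rrm2 and Pcna in library 3.

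Markers of other cells moved with genotype as well. By the exact test, 8.0% of all genes tested rose and 6.84% fell. B cell markers were higher in 4 of 6 genes by the exact test, in 2 by the quasi-likelihood test and in 3 by DESeq2, with a summed range of 39.0 to 46.3 CPM in the controls and 50.7 to 87.8 CPM in Rnmt cKO. Myeloid markers were higher in 3 of 4 tested (5 listed), at 4.39 to 5.965 CPM and 11.5 to 33.1 CPM. Of these, S100a8 and S100a9 were under 1 CPM in every control and passed the filter only through Rnmt cKO libraries. Their calls are therefore no support for the direction. Both (2 of 2) CD8 T cell markers and both tested erythroid markers were lower by the exact test, while the quasi-likelihood test and DESeq2 each called 1 CD8 marker, with sums of 21.7 to 23.3 CPM in the controls and 13.5 to 17.3 CPM in Rnmt cKO for CD8 and of 4.53 to 7.29 CPM and 0.634 to 1.165 CPM for the 4 listed erythroid genes. Both tested erythroid genes, Hbb-bs and Hba-a1, were under 1 CPM in every Rnmt cKO library and passed the filter only through the controls. These erythroid calls are therefore no support for the direction either. Of the thymocyte markers Ptcra held no count in any library, and the sum ranged from 9.2 to 12.6 CPM over all libraries. Markers of naïve CD4 T cells summed to 4275 to 4544 CPM in the controls and 4941 to 5454 CPM in Rnmt cKO, and activated and effector T cell markers were lower in 2 of 3 tested (6 listed). In Rnmt cKO the B cell and myeloid sums were highest in library 2, and the histone sum was lowest in that library. The part of these markers in the histone values was not tested.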

How the data were processed

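Total RNA was depleted of ribosomal RNA and sequenced as paired 75-base reads by the authors, who aligned them with STAR 2.5.2b to mm10 (GENCODE vM12 basic) and deposited raw read counts per gene for each library. The counts of the sense strand were used, as these were the ones behind the deposited scaled signal columns (100% of genes at a constant ratio in each library). The authors' fold changes, abundances and p-values were not used. Uniquely mapped reads alone were counted, so near-identical histone copies lose reads.

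Genes above 1 CPM in at least 3 libraries were tested with the edgeR 4.0.16 exact test (R 4.3.3, Benjamini-Hochberg threshold 0.05) in 6 libraries of 8873413 to 11277764 sense counts. The test, the filter and the threshold follow the study's methods, while TMM scaling and tagwise dispersions were chosen here, and more genes passed than the deposited table holds (11221). Adjusted p-values are from this test over all 12336 genes. SEs were computed from log2 CPM with a prior count of 2. Summed levels were compared by an exact two-sided permutation test (scipy 1.17.1). The scripts were tested on simulated data. Positions and lengths came from GENCODE vM21 (same build), where 2 of the 49 genes had no entry, and promoters from RefSeq.

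Values in every library are given for the 2 genes of each class with the most reads, all Hist3 and Hist4 genes, the 5 largest and 5 smallest log2 fold changes and 3 genes known for polyadenylated mRNA. The genes and lists were chosen with earlier results of these data known. Alternatives were other scaling, filters, tests (quasi-likelihood, DESeq2 1.42.0), a replicate block, reads of either strand and leaving out each library.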

Additional observations from a re-analysis of the deposited data

Results flagged for a closer look

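Reads on the strand opposite to the 49 histone genes, which enter no comparison above, were more abundant in Rnmt cKO than in control libraries. Scaled to the sense gene counts of each library in the manner of CPM, they came to 16.5, 16.04 and 16.5 in controls 1 to 3 and to 21.75, 20.35 and 26.25 in Rnmt cKO libraries 1 to 3, with a mean of 22.8 in Rnmt cKO against 16.4 ± 0.27 (SD, n = 3) in controls. As a share of the sense counts of the same genes they were 1.52% in controls and 1.20% in Rnmt cKO. Genes on the opposite strand overlap 11 of the 49, and the source of these reads was not tested.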

How the results depend on the processing

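Over all alternatives run, 30 to 38 of the 49 histone genes were called higher and 0 lower, and 29 were called higher under every one of them (4 H1, 3 H2A, 10 H2B, 7 H3 and 5 H4 genes). The lowest count, 30, came with reads of either strand and the highest, 38, without scaling beyond library size. With reads of either strand some of the 49 were not tested, among them Hist1h2af, which was called in the main test. Such genes lower that count and cannot be called under every alternative. Leaving out each library gave 33 to 37 genes and a median log2 fold change of 0.79 to 1.015. With reads of either strand the log2 ratio of the summed H2A level was 0.53 in place of 0.80. Without scaling, the median of all genes moved from 0.01 to 0.14, and 1938 genes rose and 535 fell over all genes, against 987 and 844. Over all genes, 702 rose and 638 fell with DESeq2, 1221 rose and 1285 fell without Rnmt cKO library 3, and leaving out any other library gave 643 to 747 higher and 547 to 624 lower.

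Libraries with equal replicate numbers showed no positive correlation of their deviations from the genotype means (-0.21, -0.02 and -0.345). With 3 libraries per genotype, such correlations cannot decide whether the numbers mark pairs. With the replicate number as a block, 32 histone genes rose and 0 fell, and over all genes 431 rose and 276 fell. Hist1h3f was not called with the block (0.59, quasi-likelihood test, adjusted p = 0.11). With 3 libraries per genotype no summed level can reach a permutation p below 0.1.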
